A study of Homo sapiens with 4 samples.

Results

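The 43 genes described here encode proteins that make ribosomes: subunits and factors of RNA polymerase I, the nucleolar proteins and small nucleolar ribonucleoproteins that modify ribosomal RNA, and the assembly factors of both ribosomal subunits. They were taken by symbol from a list of textbook members in 5 roles. All 43 were among the 20263 genes of the count table, and all 43 passed the filter on low counts that left 13816 genes for testing. The cells were MDA-MB-231, an established human breast cancer line of triple-negative, mesenchymal-like type. They grew with 10% fetal bovine serum and received for 24 h either YW-LF, which the series title calls a derivative of the CDK4/6 inhibitor ribociclib, or no YW-LF, in libraries named DMSO after the usual solvent. There were 2 libraries per group, called treated library 1 and 2 for YW-LF replicates 1 and 2, and the dose is not given here. Whether the replicates were separate cultures is not stated, so every p-value below measures the spread between these libraries, which may be technical. The libraries were made from total RNA with an mRNA library kit, and pre-ribosomal RNA was not analysed here.

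Ribosome production starts in the nucleolus, where RNA polymerase I copies the ribosomal DNA into a long precursor RNA. Small nucleolar ribonucleoproteins guide methylation and pseudouridine formation on that precursor, while the small subunit processome and a set of large subunit factors fold it, cut it and join it to ribosomal proteins. The process is a large part of the biosynthetic work of a growing cancer cell, and it is known to slow when growth signals or the cell cycle are blocked.

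The libraries held 34774542 to 40218240 counts. The share of mitochondrially encoded genes was 8.68% and 21.7% in the DMSO libraries, 3.14% in treated library 1 and 6.58% in treated library 2. For cytosolic ribosomal protein genes it was 3.45% and 2.60% in DMSO, 4.15% in treated library 1 and 10.0% in treated library 2. The treated libraries stood further from each other (Pearson's r across genes, which are not independent replicates, of log2 CPM, where CPM is the count scaled to a common library size, 0.907) than the DMSO libraries did (0.976), so each treated library is described separately. By the same measure, treated library 1 was closer to DMSO replicates 1 and 2 (0.9218 and 0.9105) than to treated library 2. The mesenchymal markers VIM, CD44, FN1, AXL and CAV1 were present in every library, with a summed level of 6473 and 7924 CPM in DMSO and 3912 and 5736 CPM after YW-LF. The markers ESR1 (at most 0.656 CPM) and CDH1 (at most 0.259 CPM), which define luminal and epithelial cells, were near 0, whereas the luminal keratin gene KRT18 was at 219 and 304 CPM in DMSO and 70.2 and 152 CPM after YW-LF, and ERBB2 at 71.9 and 64.2 CPM and 69.2 and 30.2 CPM. Over all libraries GATA3 was at 3.08 to 21.4 CPM, EPCAM at 5.53 to 9.35 CPM and PGR and FOXA1 at 0.227 to 7.17 CPM. The T cell marker CD3E had 0 counts in all libraries. All 8 luminal markers summed to 317 and 408 CPM in DMSO and 156 and 194 CPM after YW-LF, and the immune markers to 150 and 334 CPM and 231 and 231 CPM, of which CD68 made almost all. The part of these differences in the results below was not tested. The summed level of 6 fibroblast markers was 8.22 CPM at most, and that of 4 endothelial markers 7.61 CPM at most.

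The 43 genes did not lie on 1 side of the controls in the treated cells. In treated library 1 most of them lay under the DMSO range, and in treated library 2 most lay over it. Treated library 1 was below both DMSO libraries for 34 members (79.1%, against 41.9% of all genes tested) and above both for 6 (44.0% of all genes). Treated library 2 was above both DMSO libraries for 30 members (69.8%, against 43.3% of all genes) and below both for 11 (45.6% of all genes). The median difference from the DMSO mean, in log2 CPM, was -0.56 in treated library 1 and 0.59 in treated library 2, beside 0.029 and -0.028 over all genes. Because each of these values rests on 1 library, they have no test. In bulk RNA, fewer cells expressing a gene and less RNA per cell cannot be told apart.

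No member passed the test of the groups. The quasi-likelihood test of edgeR with Benjamini-Hochberg adjustment over all genes called 0 of 43 members higher and 0 lower at an adjusted p of 0.05 (0% of all genes in each direction), and the lowest adjusted p of a member was 0.131. At an unadjusted p under 0.05, 2 members were higher, RRN3 and RRP12 (11.5% of all genes), and 4 lower, UTP20, NOP14, UBTF and WDR12 (9.01% of all genes; 20.5% in either direction). The median log2 fold change over the members was 0.20, against 0.063 over all genes, and it was -0.089 in limma-voom and -0.12 with a replicate block. DESeq2 called 2 members higher, RRN3 and RRP12 (5.95% of all genes it adjusted), and 1 lower, UTP20 (4.41%). Leaving out a treated library changed these counts: without treated library 1 edgeR called 18 members higher and 4 lower (21.0% and 20.7% of all genes), and without treated library 2 it called 1 higher and 11 lower (10.1% and 10.2%). The median log2 fold change of the members was 0.57 in the first case and -0.57 in the second. With either DMSO library left out, no member passed and few of all genes did, so this says little about the members. Their median log2 fold change was then 0.052 without DMSO replicate 1 and 0.148 without DMSO replicate 2. In edgeR 0 members were also called without a count filter, where 0.927% of all genes were called higher and 0.718% lower, and under a replicate block, where 1.35% and 1.05% were.

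The members fell into 3 main patterns. Of the 43, 21 (48.8%) were below both DMSO libraries in treated library 1 and above both in treated library 2, a pattern seen in 10.2% of all genes. The reverse order occurred in 0 members and in 11.8% of all genes. Both treated libraries lay below both DMSO libraries for 11 members (25.6%, against 27.8% of all genes), and above both for 6 (14.0%, against 28.0%). Either way, the groups were apart for 17 of 43 members, and for 55.8% of all genes. The remaining 5 had 1 treated library within the DMSO range: POLR1B and NOLC1 in treated library 2, and RRP9, UTP15 and HEATR1 in treated library 1. Treated library 2 exceeded treated library 1 in 39 of 43 members (90.7%, against 49.5% of all genes). The exceptions were POLR1D, UBTF, WDR75 and WDR12, named after their values were seen. The size of the gap between the treated libraries had a median of 1.13 log2 units over the members and 0.74 over all genes, whereas the gap between the DMSO libraries had medians of 0.20 and 0.27.

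**Figure D1:**
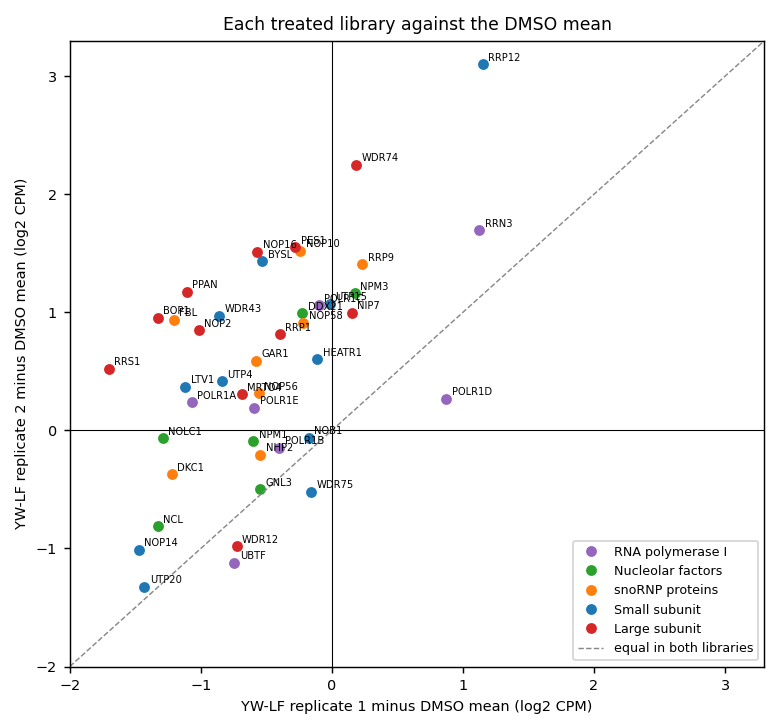
Difference in log2 CPM of each member from the DMSO mean, for YW-LF replicate 1 (horizontal axis) and YW-LF replicate 2 (vertical axis), coloured by role, with 1 point per gene and a dashed line where both libraries would be equal. Of 43 points, 21 belong to genes below both DMSO libraries in replicate 1 and above both in replicate 2, and the upper left part is the most crowded.

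The plot of both treated libraries shows how the members spread along its axes. RRS1, BOP1, NOLC1 and FBL lie far to the left, at -1.70, -1.33, -1.29 and -1.21 in treated library 1, while UTP20 and NOP14 are low on both axes and RRN3 and RRP12 high on both. The direction of the medians held under every scaling tried (TMM, DESeq2 size factors, upper quartile, library size alone): -0.57 to -0.20 in treated library 1 and 0.37 to 0.61 in treated library 2. With library size alone, the median over all genes shifted to 0.38 in treated library 1 and -0.25 in treated library 2, and 22 members were then below both DMSO libraries in treated library 1 (26.3% of all genes).

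Promoters of 5 members are shown to put a sequence beside each pattern. CACGTG, the E-box bound by some basic helix-loop-helix factors, was searched in the 250 bases before each start site (RefSeq, GRCh38.p14). The motif reads the same on both strands. It was present in 4 of the 37 members with a promoter entry (10.8%) and in 10.9% of tested genes with one, so its share among the members was close to that of the tested genes. The 4 are UTP20, lower in both treated libraries, and NOP10, DDX21 and UTP4, each below DMSO in treated library 1 and above it in treated library 2. RRN3, higher in both, is shown as a promoter without it. Sequences run 5′ to 3′ on the strand of the gene and end at the base before the start site, with the E-box in capitals. They lie at chr12:101279855-101280104 (plus strand) for UTP20, chr15:34343137-34343386 (minus) for NOP10, chr10:68956397-68956646 (plus) for DDX21, chr16:69132399-69132648 (plus) for UTP4 and chr16:15094336-15094585 (minus) for RRN3.
UTP20: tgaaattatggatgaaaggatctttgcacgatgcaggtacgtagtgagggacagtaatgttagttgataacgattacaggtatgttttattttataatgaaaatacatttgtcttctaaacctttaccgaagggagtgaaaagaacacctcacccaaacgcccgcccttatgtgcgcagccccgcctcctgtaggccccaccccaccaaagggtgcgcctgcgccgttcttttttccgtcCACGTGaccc
NOP10: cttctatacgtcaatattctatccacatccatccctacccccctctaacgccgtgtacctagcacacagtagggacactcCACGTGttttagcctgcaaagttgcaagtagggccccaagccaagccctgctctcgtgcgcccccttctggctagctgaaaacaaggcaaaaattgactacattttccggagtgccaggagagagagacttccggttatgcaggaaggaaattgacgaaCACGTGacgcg
DDX21: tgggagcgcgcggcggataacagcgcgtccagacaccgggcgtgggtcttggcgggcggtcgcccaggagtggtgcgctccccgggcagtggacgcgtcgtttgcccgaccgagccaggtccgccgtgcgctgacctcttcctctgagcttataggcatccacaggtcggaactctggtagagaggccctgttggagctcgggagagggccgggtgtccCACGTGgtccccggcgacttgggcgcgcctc
UTP4: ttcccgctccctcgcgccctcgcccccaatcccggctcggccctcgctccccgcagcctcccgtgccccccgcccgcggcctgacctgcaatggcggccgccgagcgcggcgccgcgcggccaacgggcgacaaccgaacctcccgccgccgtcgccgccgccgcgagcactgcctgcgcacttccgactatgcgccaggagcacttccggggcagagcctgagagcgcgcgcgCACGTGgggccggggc
RRN3: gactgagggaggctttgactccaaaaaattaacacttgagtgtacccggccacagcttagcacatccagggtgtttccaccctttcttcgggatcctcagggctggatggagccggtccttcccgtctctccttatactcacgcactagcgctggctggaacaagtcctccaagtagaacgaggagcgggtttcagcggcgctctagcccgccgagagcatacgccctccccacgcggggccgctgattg

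In UTP20, UTP4 and DDX21 the E-box began 10, 16 and 31 bases before the start site. NOP10 held 2, beginning 11 and 170 bases before it. The CCAAT box, searched on both strands, was in 43.2% of member promoters and 41.5% of tested ones. TATAAA, on both strands, was in 5.41% and 8.46%, and the NRF1 palindrome in 2 members (5.41%) and 2.22% of tested genes. These matches describe letters in a window and not binding.

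The RNA polymerase I genes did not share a direction. Of 7 measured members, 0 passed the test. Both treated libraries lay above DMSO for RRN3 and POLR1D (28.0% of all genes) and below it for UBTF (27.8%). POLR1A, POLR1C and POLR1E were below DMSO in treated library 1 and above it in treated library 2 (10.2%). RRN3 (ENSG00000085721, chromosome 16, 15060022 to 15094317 in GRCh38) encodes TIF-IA, which carries the polymerase to the ribosomal DNA promoter and links its activity to growth signals. It stood at 33.9 and 22.3 CPM in DMSO replicates 1 and 2, and at 60.0 and 89.1 CPM in YW-LF replicates 1 and 2. The groups did not overlap, and the log2 fold change was 1.41 (SE 0.41), a 2.65-fold difference with an edgeR adjusted p of 0.153 and a DESeq2 adjusted p of 0.047. It was 1.08 without treated library 2 and 1.75 without DMSO replicate 1. GENCODE 29 lists 2 pseudogenes named after RRN3, so shared reads make its level uncertain. The strand setting of the counting is not stated, so reads of POLR1C and the genes that overlap its exons on the opposite strand, XPO5 among them, cannot be told apart. The same limit holds for GNL3, NHP2, UTP4, UTP15, HEATR1, NOP16, PES1, WDR12, NIP7 and MRTO4, whose exons overlap other opposite-strand genes of the count table. Pseudogenes are also named after NCL, NPM1, NOP56, NHP2, LTV1, PES1 and NIP7.

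UBTF (chromosome 17, 44205033 to 44221626) encodes the HMG-box factor UBF that keeps ribosomal DNA open for transcription. Its values were 157 and 196 CPM in DMSO and 104 and 80.4 CPM after YW-LF, so both treated libraries were lower, with a log2 fold change of -0.93 (SE 0.38, edgeR adjusted p = 0.237). POLR1A, the largest catalytic subunit, had 169 and 201 CPM in DMSO, 87.8 CPM in treated library 1 and 217 CPM in treated library 2. The treated libraries thus bracketed the controls, and the log2 fold change of -0.28 (SE 0.51) became -1.08 without treated library 2 and 0.23 without treated library 1. POLR1B, the other large subunit of the catalytic core, stood at 42.7 and 34.1 CPM in DMSO and 28.9 and 34.5 CPM after YW-LF (log2 fold change -0.28, SE 0.36), and its groups overlapped. POLR1D, a small subunit shared with RNA polymerase III and named after its values were seen, was at 49.9 and 53.6 CPM in DMSO and 94.7 and 62.3 CPM after YW-LF. It was the member with the largest excess of treated library 1 over treated library 2.

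**Figure D2:**
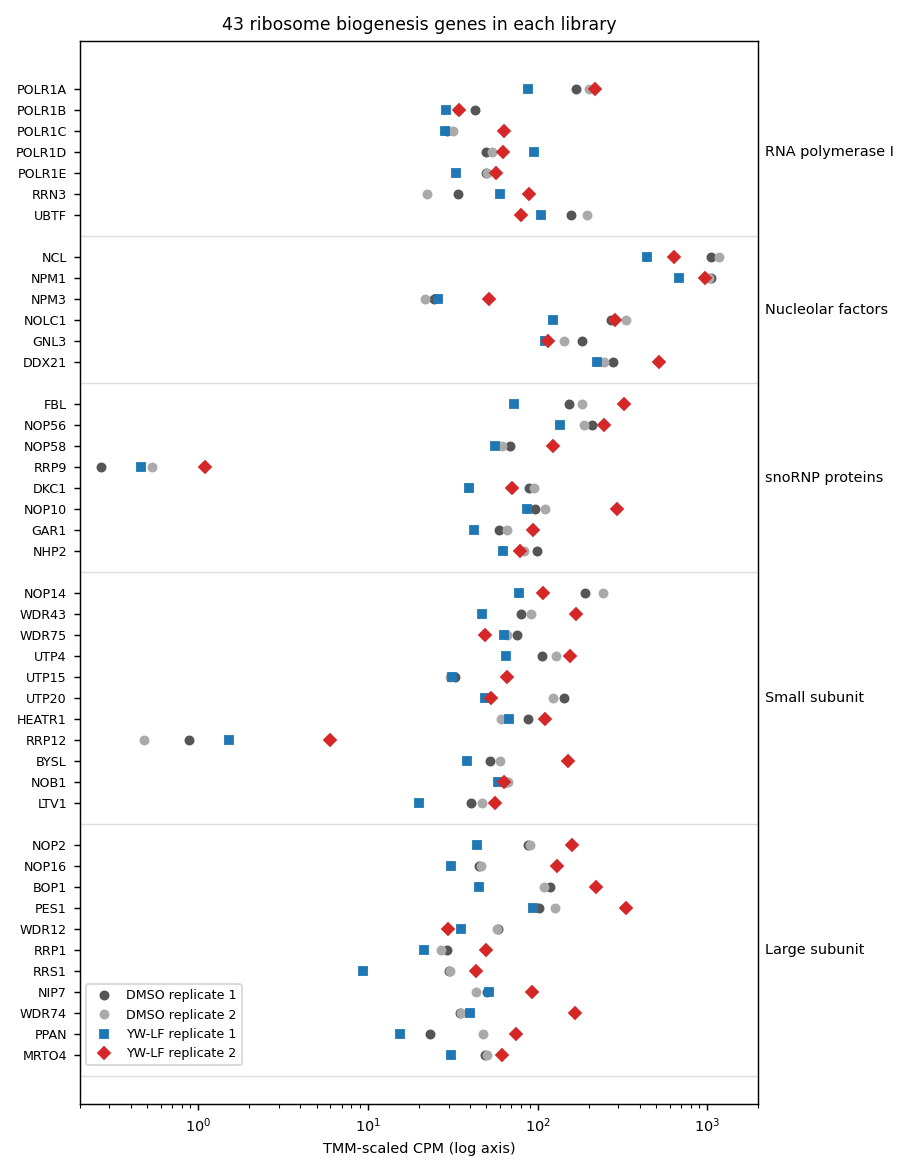
TMM-scaled CPM (log axis) of all 43 members in each of the 4 libraries, grouped by role; grey circles are DMSO, blue squares YW-LF replicate 1 and red diamonds YW-LF replicate 2. In the large subunit group YW-LF replicate 2 is above both DMSO libraries in 10 of 11 genes (43.3% of all genes) and YW-LF replicate 1 below both in 9 (41.9% of all genes).

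Among the 6 genes of nucleolar factors, 3 (NCL, NPM1 and GNL3) lay below DMSO in both treated libraries (27.8% of all genes) and 1 (NPM3) above (28.0%), and 0 passed the test. NCL (chromosome 2, 231453531 to 231483641) encodes nucleolin, which binds the nascent precursor RNA. It was at 1060.0 and 1169 CPM in DMSO and 444 and 634 CPM after YW-LF. Both treated libraries were well under the controls, with a log2 fold change of -1.05 (SE 0.49, edgeR adjusted p = 0.280), a 2.07-fold difference. NPM1, the histone-binding chaperone nucleophosmin, was at 1059 and 1023 CPM in DMSO and 686 and 977 CPM after YW-LF (a log2 fold change of -0.32, SE 0.49, edgeR adjusted p = 0.739). GENCODE 29 lists 45 pseudogenes named after NPM1, so its counts are uncertain. Per length of annotated exon, NPM1 (272 RPKM), NOP10 (187 RPKM) and NCL (161 RPKM) had the highest mean levels of the members in DMSO.

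NPM3, a small relative of nucleophosmin, was at 24.5 and 21.7 CPM in DMSO, 26.1 CPM in treated library 1 and 51.6 CPM in treated library 2. Its log2 fold change of 0.75 (SE 0.44) was 0.16 without treated library 2. NOLC1 encodes Nopp140, a chaperone of small nucleolar ribonucleoproteins, and stood at 271 and 331 CPM in DMSO, 123 CPM in treated library 1 and 286 CPM in treated library 2. Only the first treated library was outside the DMSO range, and the log2 fold change was -0.56 (SE 0.51) with all libraries and -1.31 without treated library 2. The RNA helicase gene DDX21, whose promoter is printed above, was at 279 and 247 CPM in DMSO and 224 and 522 CPM after YW-LF.

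The small nucleolar ribonucleoprotein genes mostly lay on opposite sides of DMSO in the treated libraries. Of 8 members, 5 (FBL, NOP56, NOP58, NOP10 and GAR1) were below DMSO in treated library 1 and above it in treated library 2 (10.2% of all genes), 2 (DKC1 and NHP2) were below in both (27.8%), and 0 passed the test. FBL encodes fibrillarin, the methyltransferase of box C/D particles, and had 154 and 184 CPM in DMSO, 73.0 CPM in treated library 1 and 323 CPM in treated library 2. The treated libraries differed 4.42-fold, and the log2 fold change of 0.22 (SE 0.68) was -1.22 without treated library 2 and 0.93 without treated library 1. NOP56, which holds fibrillarin in the particle, was at 211 and 188 CPM in DMSO and 135 and 247 CPM after YW-LF (log2 fold change -0.061, SE 0.44).

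DKC1 (chromosome X, 154762742 to 154777689) encodes dyskerin, the pseudouridine synthase of box H/ACA particles. It was at 88.9 and 95.1 CPM in DMSO and 39.4 and 71.1 CPM after YW-LF, lower in both treated libraries, with a log2 fold change of -0.74 (SE 0.41, edgeR adjusted p = 0.349). NOP10, a short core protein of the same particles, was at 96.0 and 111 CPM in DMSO, 87.2 CPM in treated library 1 and 296 CPM in treated library 2. Its log2 fold change of 0.89 (SE 0.60) turned to -0.11 after a correction for transcript length, and NOP10 has the shortest annotated exon length of the members, at 554 bases. RRP9, a protein of the U3 particle, held 10 and 18 counts in DMSO and 23 and 34 in YW-LF, too few for a firm value.

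Genes of the small subunit processome included the member of lowest p. Of 11 measured, 4 (UTP20, NOP14, WDR75 and NOB1) were below DMSO in both treated libraries (27.8% of all genes), 1 (RRP12) was above in both (28.0%), 4 lay below DMSO in treated library 1 and above it in treated library 2 (10.2%), and 0 passed the edgeR test. UTP20 (ENSG00000120800, chromosome 12, 101280109 to 101386616) encodes a large scaffold of the processome. It stood at 144 and 123 CPM in DMSO and 49.2 and 52.9 CPM after YW-LF. The treated libraries nearly coincided, well below the controls, with a log2 fold change of -1.38 (SE 0.35), a 2.61-fold difference with an edgeR adjusted p of 0.131 and a DESeq2 adjusted p of 0.030. NOP14 (chromosome 4, 2937933 to 2963385), a factor of 40S maturation, was at 191 and 245 CPM in DMSO and 77.8 and 107 CPM after YW-LF, with a log2 fold change of -1.23 (SE 0.39, edgeR adjusted p = 0.172). With either treated library left out, both genes passed in edgeR: adjusted p was 0.0072 and 0.017 for UTP20, and 0.024 and 0.019 for NOP14, without treated libraries 1 and 2. RRN3 also passed both times (0.0040 and 0.047). In these fits the DMSO pair alone sets the spread, since the lone treated library is assumed to vary like it. Many of all genes passed in them too, at the shares given above. UTP20, RRN3 and NOP14 also had the lowest p of the members with all libraries used. Their passing is therefore no sign that they are more robust than other genes. With either DMSO library left out, none of the 3 passed, and few of all genes did.

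HEATR1, another processome scaffold, was at 87.6 and 61.1 CPM in DMSO and 67.8 and 111 CPM after YW-LF, with overlapping groups (log2 fold change 0.27, SE 0.42). BYSL, the bystin gene of late 40S assembly, was at 52.1 and 59.9 CPM in DMSO, 38.7 CPM in treated library 1 and 151 CPM in treated library 2. The treated libraries lay on either side of the controls, 3.90-fold apart, and the log2 fold change of 0.76 (SE 0.63) was -0.55 without treated library 2. RRP12, a HEAT-repeat export factor named after its values were seen, had 33 and 16 counts in DMSO and 76 and 185 in YW-LF, or 0.881, 0.478, 1.51 and 5.99 CPM. Its log2 fold change was 2.45 (SE 0.89, edgeR adjusted p = 0.203, DESeq2 adjusted p = 0.047), and 1.13 without treated library 2.

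The large subunit factors had the widest gap of the 5 role groups between the treated libraries, with a median size of 1.86 log2 units against 0.60 to 1.14 in the others. Of 11 members, 8 were below DMSO in treated library 1 and above it in treated library 2 (10.2% of all genes), 2 (NIP7 and WDR74) were above in both (28.0%), 1 (WDR12) was below in both (27.8%), and 0 passed the test. PES1, BOP1 and WDR12 form the PeBoW complex, which is needed to process the large subunit RNA, and its genes had different patterns. BOP1 was at 119 and 109 CPM in DMSO, 45.3 CPM in treated library 1 and 221 CPM in treated library 2, a 4.87-fold gap between the treated libraries with a log2 fold change of 0.22 (SE 0.70). PES1 had 102 and 127 CPM in DMSO, 93.7 CPM in treated library 1 and 334 CPM in treated library 2 (log2 fold change 0.90, SE 0.62, edgeR adjusted p = 0.439). WDR12 (chromosome 2, 202874782 to 203014798) was lower in both treated libraries, at 35.2 and 29.5 CPM against 58.7 and 58.0 CPM in DMSO, with a log2 fold change of -0.85 (SE 0.34, edgeR adjusted p = 0.237). Whether WDR12 differs in its response from PES1 or BOP1 was not tested.

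WDR74, which takes part in late nucleolar steps of the large subunit, was at 34.8 and 35.3 CPM in DMSO, 39.8 CPM in treated library 1 and 167 CPM in treated library 2. The excess came almost wholly from treated library 2: the log2 fold change was 1.56 (SE 0.66, edgeR adjusted p = 0.246), and 0.17 without that library. In GENCODE 29 its exons overlap those of the small nuclear RNA gene RNU2-2P and the protein-coding gene TEX54 on the same strand. Reads of these genes cannot be told apart from position alone. The same limit holds for LTV1, whose exons overlap 2 same-strand protein-coding genes of the count table. PPAN shares exons with the readthrough gene PPAN-P2RY11, and its DMSO libraries differed from each other, at 23.3 and 47.6 CPM.

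**Figure D3:**
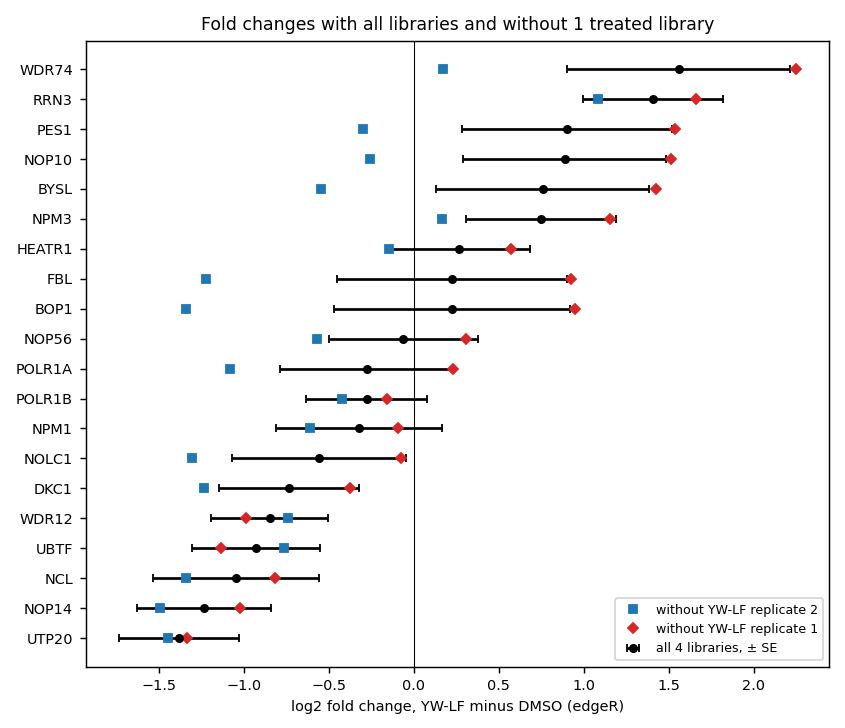
Log2 fold change of YW-LF against DMSO in edgeR for the 20 members named by rule, with all 4 libraries (black, bars are SE) and with 1 treated library left out (blue without YW-LF replicate 2, red without YW-LF replicate 1). Values of UTP20 and RRN3 stay on 1 side of 0, while those of BOP1 run from -1.34 to 0.95.

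In the plot of fold changes, some members had close values in both treated libraries, such as UTP20, WDR12 and UBTF. For others the sign depended on which library is used. Still others, such as WDR74, kept their sign with values far apart (0.17 without treated library 2 and 2.25 without treated library 1). Among the 20 named members, log2 fold changes turned sign when a treated library was left out for BOP1, FBL, BYSL, PES1, NOP10, HEATR1, NOP56 and POLR1A.

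A wider list of 132 other ribosome biogenesis genes had smaller gaps between the treated libraries than the members. The median size was 0.76 log2 units, beside 1.13 in the members and 0.74 over all genes. Of 131 measured, 36 (27.5%) were above DMSO in both treated libraries and 28 (21.4%) below, beside 28.0% and 27.8% of all genes, and 0 passed the edgeR test. At an unadjusted p under 0.05, 11 were higher and 7 lower, beside 11.5% and 9.01% of all genes. Treated library 2 exceeded treated library 1 in 114 of them (87.0%), and the medians against the DMSO mean were -0.21 and 0.69 log2 units. TCOF1, the treacle protein of ribosomal DNA transcription, was at 143 and 140 CPM in DMSO and 41.6 and 56.7 CPM after YW-LF (a log2 fold change of -1.52, SE 0.37, edgeR adjusted p = 0.126). TAF1D, a subunit of the promoter selectivity factor SL1, was at 46.1 and 38.2 CPM in DMSO and 87.5 and 104 CPM after YW-LF (1.19, SE 0.35, edgeR adjusted p = 0.157). Both differ from the DMSO libraries in 1 direction, lower for TCOF1 and higher for TAF1D.

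In the large subunit list, NMD3, the adapter that exports the 60S subunit, was at 67.2 and 49.1 CPM in DMSO and 161 and 216 CPM after YW-LF (a log2 fold change of 1.70, SE 0.40, edgeR adjusted p = 0.121), and the assembly factor gene RSL24D1 had a log2 fold change of 1.29 (SE 0.41). In the small subunit list, the 18S RNA methyltransferase gene DIMT1 was at -1.12 (SE 0.35) and IMP3, of the U3 particle, at -1.37 (SE 0.44). EXOSC10, a catalytic exosome subunit, was at -1.30 (SE 0.37) and its cofactor gene C1D at 1.63 (SE 0.43). Of the snoRNP assembly genes, RPAP3 was at -0.88 (SE 0.44) and SNU13 at 0.83 (SE 0.56).

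**Figure D4:**
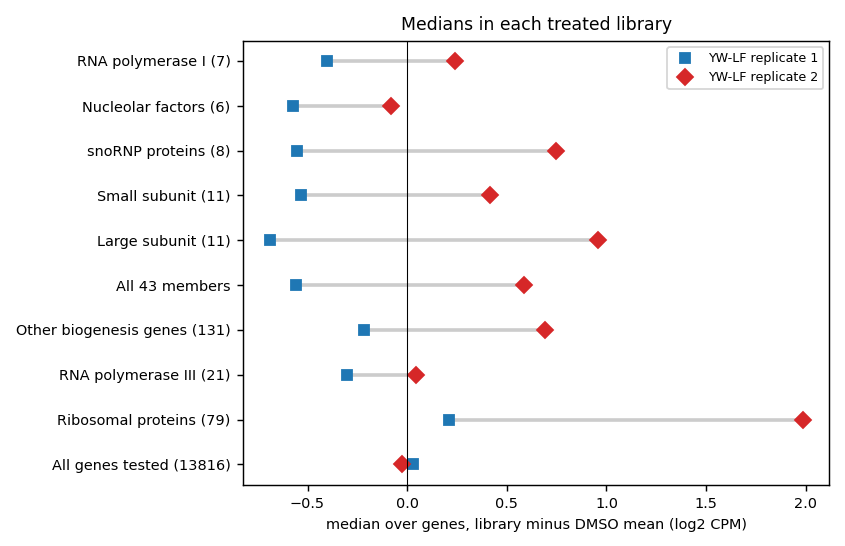
Median over genes of the difference in log2 CPM from the DMSO mean, in YW-LF replicate 1 (squares) and YW-LF replicate 2 (diamonds), for the role groups, wider lists and all genes tested; numbers in brackets are genes. The medians of all 43 members are -0.56 and 0.59, and those of the ribosomal protein genes 0.21 and 1.99.

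The plot of medians places the 79 ribosomal protein genes higher than the biogenesis genes in both treated libraries: 79 of 79 were above both DMSO libraries in treated library 2 (43.3% of all genes) and 46 in both treated libraries (28.0% of all genes), while 18 were below both DMSO libraries in treated library 1 (41.9% of all genes), and their medians were 0.21 and 1.99 log2 units. They shared the gap between the treated libraries: treated library 2 exceeded treated library 1 in 79 of 79, and in 39 of 43 members (49.5% of all genes). The gap had a median size of 1.79 log2 units in them and 1.13 in the members. Of the ribosomal protein genes, 22.8% were below DMSO in treated library 1 and above it in treated library 2 (10.2% of all genes). Transcript length moved with the gap between libraries, the DMSO pair included. Across the 43 members, Pearson's r between log2 exon length and the log2 difference of treated library 2 from treated library 1 was -0.35, and across 13800 genes it was -0.16, where all points share the same 2 libraries. For DMSO replicate 2 minus DMSO replicate 1 it was -0.27 across the members and -0.081 across all genes. After a correction for length in each library the medians of the members were -0.71 in treated library 1 and 0.34 in treated library 2. In treated library 2, 23 members were then above both DMSO libraries (46.7% of all genes) and 18 below (42.4%), compared with 30 and 11 before the correction. In treated library 1, 35 were below both (42.7% of all genes). With that correction 18 members lay below DMSO in both treated libraries (27.1% of all genes) and 5 above (28.7%). The share of mitochondrial counts also differed between libraries, and without those 13 genes the medians were -0.56 and 0.60.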

How the data were processed

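RNA-seq counts of 4 libraries, 2 DMSO and 2 YW-LF, were used. The table deposited by the authors holds raw counts, judged from its whole-number values. The aligner, counter and strand setting were not stated. Mouse builds, GRCm38 and mm10, are named in the submitters' processing notes, but all 20263 row identifiers are human Ensembl genes. Symbols matched 20148 rows, and the other 115 (0.102% of counts) stayed in the tests. Positions and exon lengths come from GENCODE 29 (GRCh38), matched by identifier. In the files, 2 further columns of per-sample values match no label and were not used.

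From the counts, edgeR 4.0.16 in R 4.3.3 was run with filterByExpr, which kept 13816 genes, TMM (trimmed mean of M-values) scaling and a quasi-likelihood test of the treated against the control group on the 4 libraries, with Benjamini-Hochberg adjustment over all genes and a threshold of 0.05. SE is the log2 fold change divided by the square root of F. CPM are TMM-scaled; log2 CPM has a prior count of 2; RPKM divides CPM by the union of annotated exons. At these depths 1 count equals 0.0249 to 0.0288 CPM before scaling. With 2 against 2 libraries, no exact permutation test of a single gene can reach 0.05. The test was checked on simulated data. Alternatives were DESeq2 1.42.0, limma-voom (limma 3.58.1), other scalings and count filters, the replicate number as a block, removal of mitochondrially encoded genes, a loess correction for length, and leaving out each library.

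Members and lists were chosen with earlier results of these data known. The naming rule took 13 fixed members, the 2 of lowest p and the 1 with the widest gap between treated libraries in each of 5 role groups, and the 2 of lowest p in each other list. One gene of the wider list, AFG2A, was not analysed here. A gene of the marker lists is not reported here.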

Additional observations from a re-analysis of the deposited data

How the results depend on the processing

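The count of all genes called was 0 in each direction in edgeR, and 841 higher and 623 lower in DESeq2, 155 and 120 without a count filter, 186 and 145 with a replicate block, and 46 to 2963 higher and 16 to 2919 lower with 1 library left out. The count of members called was 2 higher and 1 lower in DESeq2, 0 to 18 higher and 0 to 11 lower with 1 library left out, and 0 under each other alternative. At an unadjusted p under 0.05, 1 member was higher in limma-voom, 2 were lower with the block and 2 with the length correction, and 0 to 19 were higher and 0 to 17 lower with 1 library left out. Shares of all genes at an unadjusted p are given only for the main fit, 11.5% higher and 9.01% lower. Whether the counts under the alternatives are unusual for the members can therefore not be told. Members with both treated libraries above DMSO numbered 10 with library size alone (28.7% of all genes), and those with both below numbered 18 with the length correction (27.1%). With 1 library left out, members whose remaining groups did not overlap numbered 6 to 30 higher and 11 to 34 lower. The 30 and the 34 count a single treated library, the second and the first (43.5% and 41.5% of all genes). The median of the other polymerase I genes ran from -0.10 to 0.94 and that of the RNA polymerase III genes from -0.33 to 0.041 with 1 library left out. The median of the members ran from -0.57 to 0.57, of the polymerase I group from -0.42 to 0.23, of the snoRNP group from -0.57 to 0.74, of the small subunit group from -0.55 to 0.41 and of the large subunit group from -0.70 to 0.95, so each changed sign, while the nucleolar group stayed between -0.59 and -0.086. In limma-voom the median was -0.089 for the members, -0.046 for the snoRNP group and -0.012 for the large subunit group. With the block it was -0.119 for the members and -0.059 for the snoRNP group. With the length correction it was -0.085 for the snoRNP group, 0.048 for the polymerase I group and 0.001 for the small subunit group.

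Of 280 recomputed log2 fold changes of the 20 named members, 17 turned sign. BOP1 was -0.161 in limma-voom and -0.185 with the block, FBL -0.089, -0.135 and, with the length correction, -0.064. With that correction NOP10 was -0.107, NOP56 0.011 and POLR1A 0.048. With 1 library left out, BOP1 ran from -1.341 to 0.951, FBL from -1.224 to 0.928, BYSL from -0.547 to 1.427, PES1 from -0.299 to 1.540, NOP10 from -0.258 to 1.512, HEATR1 from -0.145 to 0.574, NOP56 from -0.572 to 0.306 (0.033 without DMSO replicate 1) and POLR1A from -1.085 to 0.230. The cause was not tested beyond the libraries left out. Between samples of the same replicate number, r of deviations from the group means was 0.037 across genes. With 2 libraries per group this is a single value, so it cannot show whether the numbers pair the samples. Depth limits RRP9 and RRP12, with 10 to 185 counts a library; the other 41 members held at least 468.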

Other observations

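RNA polymerase III makes the 5S ribosomal RNA and transfer RNAs and shares POLR1C and POLR1D with RNA polymerase I. Of 21 genes of this polymerase and its initiation factors, 7 lay above DMSO in both treated libraries and 8 below (28.0% and 27.8% of all genes), and 0 passed the edgeR test. At an unadjusted p under 0.05, 3 were higher and 2 lower, beside 11.5% and 9.01% of all genes. POLR3B, its other large catalytic subunit, was at 29.6 and 28.1 CPM in DMSO and 6.35 and 9.06 CPM after YW-LF, the lower level in both treated libraries (log2 fold change -1.91, SE 0.41, edgeR adjusted p = 0.121). BRF2, an initiation factor for a small class of its genes, was at 8.89 and 7.68 CPM in DMSO and 22.2 and 27.3 CPM after YW-LF (1.58, SE 0.40, edgeR adjusted p = 0.130). The median of the list was -0.30 in treated library 1 and 0.045 in treated library 2.

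Of the 79 ribosomal protein genes, 0 passed the edgeR test, and those of lowest p were RPS12 and RPL39. RPS12 was at 122 and 82.6 CPM in DMSO, 291 CPM in treated library 1 and 1059 CPM in treated library 2 (log2 fold change 2.72, SE 0.70, edgeR adjusted p = 0.135). RPL39 was at 102 and 72.6 CPM in DMSO, 227 CPM in treated library 1 and 1449 CPM in treated library 2 (3.26, SE 0.90, edgeR adjusted p = 0.141).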
